A study of Mus musculus with 10 samples.

Results

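The promoters of 9 tumour suppressor genes, Cdkn2a, Cdkn2b, Mgmt, Rassf1, Brca1, Cdh1, Dapk1, Trp73 and Socs1, were examined in mouse spermatozoa. They were chosen because methylation silences the promoters of these genes in cancers for which decitabine is given, and the rule uses no measured value. They are 9 of the 21938 protein-coding genes of the annotation. A promoter was taken as the 1000 bp on each side of the gene start (GENCODE, mm10), and its level is the percentage of methylated reads over its CpGs, the CG dinucleotides at which mammalian DNA is methylated. The 9 windows hold 990 CpGs in the reference sequence, and 461 of them had at least 10 reads, both strands summed, in all 10 animals.

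Most mammalian promoters lie in CpG islands, stretches dense in CpGs that normally stay unmethylated. In tumours the islands of growth-restraining genes can become methylated, which goes with loss of their expression. Decitabine is a cytidine analogue that is built into replicating DNA, where it traps DNA methyltransferases, so that methylation is lost over cell divisions. Sperm DNA is highly methylated over most of the genome, but CpG island promoters are generally free of methylation.

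Reduced representation bisulfite sequencing (RRBS) was used, in which DNA is cut at CCGG sites by MspI, short fragments are kept and unmethylated cytosines are read as thymine after bisulfite conversion. All animals were C57Bl/6 males. In the P-generation, decitabine at 0.1 µg/g was injected into 3 males (D10, D11 and D13) intraperitoneally 3 times per week for 7 weeks, starting at 7 weeks of age. The 2 vehicle-control males (C8 and C14) had been given the solvent of 7.5% DMSO in PBS on the same schedule. The F3-generation comprised 2 untreated descendants of the vehicle-control males (F3C9 of C8 and F3C30 of C14) and 3 untreated descendants of decitabine treated males (F3D1 and F3D31 of D10, F3D7 of D11). Sperm were filtered from minced epididymides at 14 to 15 weeks of age, and each library came from 1 animal. Because the F3 males descend from the P males, the generations are related samples, and F3D1 and F3D31 share an ancestor.

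The read counts summed over CpG cytosines ran from 48903817 in D13 to 115158278 in F3D1, with a median of 31 to 65 reads per CpG with at least 10 reads. A read that spans several CpGs is counted at each of them, so the counts summed over a promoter are not independent reads and their intervals are too narrow. Methylated reads at loci that are unmethylated in sperm were present in all libraries, although the samples are labelled as sperm. Over 10 of 12 maternally methylated imprinted starts with at least 5 covered CpGs (Peg10 and Sgce share theirs), the summed level was 8.60% and 20.6% in the P vehicle-control animals, 11.4% to 18.6% in the P decitabine treated animals, 9.10% and 11.8% in the F3 vehicle-control animals and 9.23% to 12.5% in the F3 decitabine animals. Over 8 of 12 germline genes that are methylated in somatic cells it was 13.7% and 23.6%, 17.4% to 25.7%, 12.0% and 21.4%, and 11.6% to 17.1% in the same order. The 1 imprinted start at 0 in any library was Kcnq1ot1 in C8, and the germline genes were above 0 in all libraries. The part of other cells in the values below was not tested, and in a whole sperm preparation a changed share of cells and a changed level per cell cannot be told apart. C8 had the highest summed imprinted level, so results that rest on it are given with and without it. At the germline genes D11, at 25.7%, and D10, at 24.1%, were above C8, at 23.6%.

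**Figure D1:**
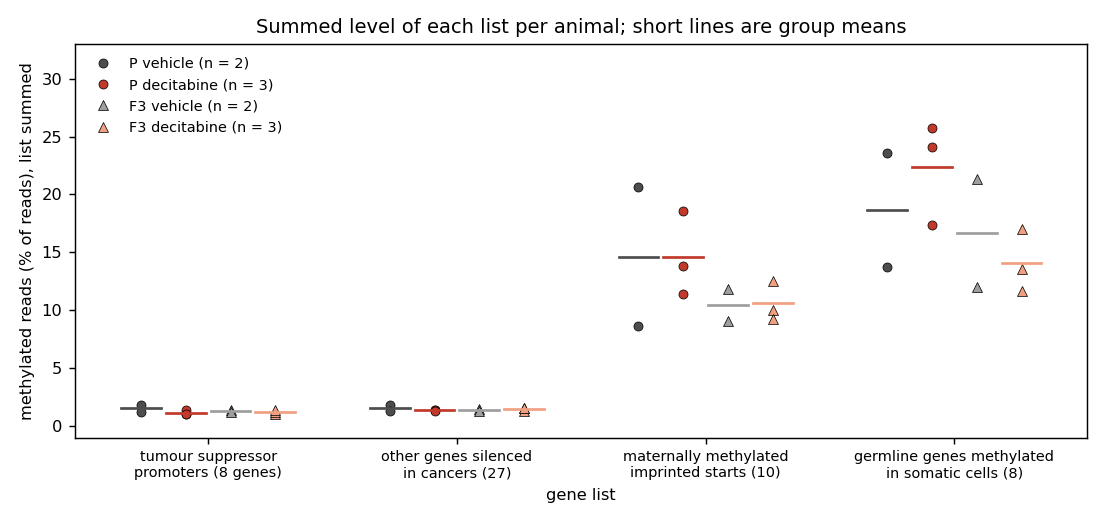
Percentage of methylated reads summed over each gene list (y axis) for every animal, by list (x axis). Points are animals, short lines are group means; the tumour suppressor promoters lie between 0.999% and 1.82% in all animals, while the imprinted starts and germline genes lie between 8.60% and 25.7%.

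Which CpGs were covered depends on the MspI sites. The sequence CCGG, which reads the same on both strands, occurs in 86.3% of all protein-coding promoter windows, with a median of 6 sites per window. Socs1 held 26 sites and Cdkn2a 23, and 116 and 115 of their CpGs were covered. Mgmt held 4 sites and 4 covered CpGs, all between 210 and 170 bases upstream of its start. For Cdkn2b and Brca1, no upstream CpG was covered in all animals.

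The stretches below were read from the RefSeq copy of GRCm38.p6 and run 5′ to 3′ along the strand of the gene. Capitals mark the CpGs covered in all 10 animals. The first 5 come from promoters whose covered CpGs were almost free of methylation. The others contrast the upstream CpGs of Rassf1 and Cdh1 that carried methylation with the start of Cdh1.
Cdkn2a, chr4:89294804-89294953, minus strand: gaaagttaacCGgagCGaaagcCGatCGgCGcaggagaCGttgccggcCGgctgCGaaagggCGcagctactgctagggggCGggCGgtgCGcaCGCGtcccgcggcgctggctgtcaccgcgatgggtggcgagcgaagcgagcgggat
Mgmt, chr7:136894402-136894446, plus strand: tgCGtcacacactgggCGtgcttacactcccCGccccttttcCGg
Dapk1, chr13:60601820-60601946, plus strand: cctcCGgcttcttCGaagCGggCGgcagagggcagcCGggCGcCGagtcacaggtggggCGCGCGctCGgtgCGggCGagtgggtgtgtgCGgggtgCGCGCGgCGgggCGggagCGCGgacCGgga
Trp73, chr4:154140433-154140538, minus strand: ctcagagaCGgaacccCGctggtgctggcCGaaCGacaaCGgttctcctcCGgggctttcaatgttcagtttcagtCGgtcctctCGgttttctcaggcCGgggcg
Socs1, chr16:10785666-10785846, minus strand: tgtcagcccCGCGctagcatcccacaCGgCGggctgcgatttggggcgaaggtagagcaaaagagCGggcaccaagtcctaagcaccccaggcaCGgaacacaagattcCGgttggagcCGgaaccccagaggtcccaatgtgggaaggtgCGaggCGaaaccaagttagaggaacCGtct
Rassf1, chr9:107550699-107550739, plus strand: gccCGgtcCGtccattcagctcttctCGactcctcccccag
Rassf1, chr9:107550770-107550799, plus strand: agaggcagtagctcCGgagaggccccgctg
Cdh1, chr8:106602559-106602687, plus strand: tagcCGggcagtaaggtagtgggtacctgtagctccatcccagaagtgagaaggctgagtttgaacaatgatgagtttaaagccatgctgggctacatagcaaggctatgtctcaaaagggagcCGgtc
Cdh1, chr8:106603311-106603350, plus strand: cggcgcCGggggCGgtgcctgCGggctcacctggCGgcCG

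At the CpGs covered in all 10 animals, the 9 promoters were nearly free of methylation in sperm. Coverage was thin in some windows, with 4 of 45 CpGs in Mgmt, 10 of 87 in Brca1 and 24 of 96 in Rassf1. Mean levels of the 9 over the 10 animals ran from 0.538% in Mgmt to 3.37% in Rassf1. The median was 0.954% over the 12330 protein-coding promoters with at least 5 covered CpGs, of which 92.8% were below 5%. Rassf1 lay above 90.6% of these promoters and Cdh1 above 89.5%. Of the 461 CpGs, 211 had no methylated read in any animal, 437 had a mean level below 5% and 7 had a mean of 10% or more. Mitochondrial CpGs in the same libraries read 1.09% to 2.72%. Whether they mark the floor of the assay was not tested.

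**Figure D2:**
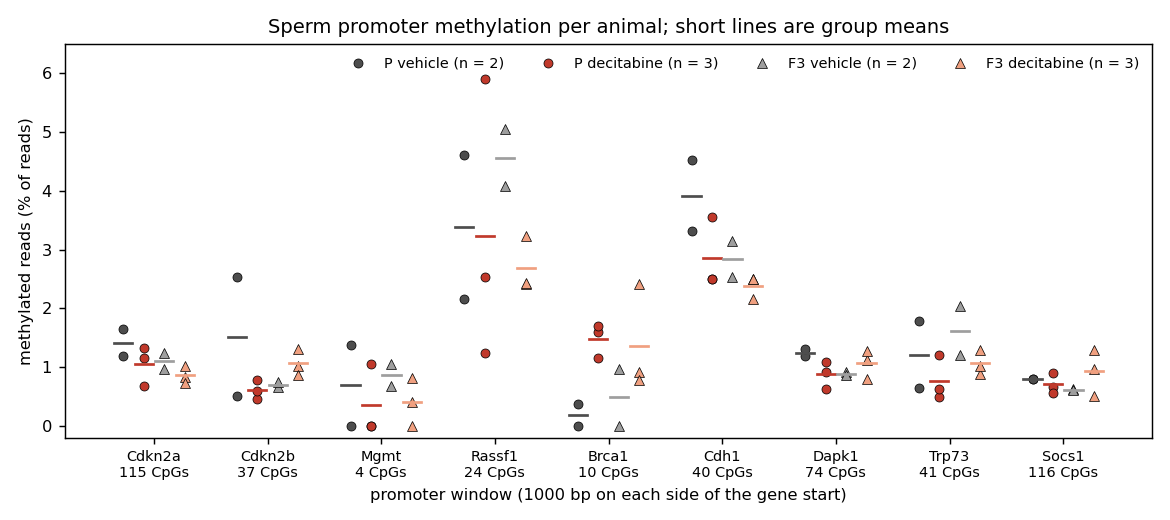
Percentage of methylated reads (y axis) in the promoter window of each gene (x axis) for every animal. Points are animals and short lines group means; Rassf1 and Cdh1 stand above the other genes, and the highest single value is 5.90% in Rassf1 of D11.

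Among the inhibitors of cyclin-dependent kinases, Cdkn2a encodes p16Ink4a and, from its upstream start, p19Arf, an activator of p53. The Cdkn2a window (chr4:89293653-89295653, minus strand) surrounds the p19Arf start, and 96 of its 115 covered CpGs lay upstream. Methylated reads made up 1.64% and 1.18% in C8 and C14, 0.674%, 1.15% and 1.33% in D10, D11 and D13, 1.24% and 0.972% in F3C9 and F3C30, and 0.834%, 0.730% and 1.02% in F3D1, F3D7 and F3D31. The groups overlapped in both generations, and the mean over all animals was 1.08% ± 0.294 (SD, n = 10). The highest CpG lay 543 bp upstream with a mean of 10.9%. There C8 was at 56.3% of 16 reads and the other animals at 0% to 21.9%. The start of p16Ink4a lies 12461 bp downstream, where 1 of 57 CpGs was covered in all animals, with a mean of 3.97% ± 4.85 (SD, n = 10) at 14 to 53 reads, too few for a group comparison.

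Cdkn2b encodes p15Ink4b, which holds back the G1 phase. Its 37 covered CpGs (chr4:89310039-89312039, minus strand) lay 21 to 399 bp inside the gene, 19 in untranslated and 16 in coding exon sequence. The level was 2.53% in C8 and 0.510% in C14, 0.782%, 0.453% and 0.589% in D10, D11 and D13, 0.661% and 0.742% in F3C9 and F3C30, and 1.02%, 1.31% and 0.865% in F3D1, F3D7 and F3D31. C8 alone was above the others in the P-generation. In the F3-generation the 3 decitabine animals lay above both vehicle-control animals by 0.364 percentage points on average (95% limma interval -0.724 to 1.45; two-sided exact permutation p = 0.2).

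Mgmt and Brca1 act in DNA repair: Mgmt removes alkyl groups from guanine, and Brca1 is needed for repair of double-strand breaks by homologous recombination. At Mgmt (chr7:136893614-136895614, plus strand), 10 of 1572 read counts summed over the 4 CpGs were methylated in all. The level was 0% in C8, D11, D13 and F3D31, 1.38% in C14, 1.05% in D10, 1.05% and 0.676% in F3C9 and F3C30, and 0.823% and 0.403% in F3D1 and F3D7. In C8 the value rested on 44 read counts summed over the 4 CpGs, 11 per CpG, and the Wilson 95% interval reached up to 8.03%. Such intervals cover counting error only.

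The 10 covered CpGs of Brca1 (chr11:101550955-101552955, minus strand) lay 34 to 358 bp inside the gene. Nbr1 starts 194 bp away on the opposite strand, so the window belongs to both genes. Methylated reads numbered 0 of 173 in C8, with a Wilson 95% interval of up to 2.17%, which includes the values of all 3 decitabine treated animals, and 1 of 264 in C14 (0.379%). In D10, D11 and D13 they made up 1.60%, 1.15% and 1.69%, or 3 to 4 reads per animal. Every decitabine treated animal of the P-generation was thus above both vehicle-control animals, by 1.29 percentage points on average (95% limma interval 0.172 to 2.41; two-sided exact permutation p = 0.1, the smallest possible). In F3C9 and F3C30 the level was 0.967% and 0%, and in F3D1, F3D7 and F3D31 it was 0.911%, 2.41% and 0.781%, so the F3 groups overlapped. The limma test over all promoters gave Brca1 a log2 ratio of 1.52 ± 0.61 (SE) in the P-generation, with an adjusted p of 0.597, and of 1.52 ± 0.61 in the F3-generation, with an adjusted p of 0.999. Both rest on 34 methylated reads of 3261 over all animals. Without C8 or C14, which leaves 1 vehicle-control animal, the P log2 ratio was 1.525 or 1.71. The unadjusted limma p of the P-generation, 0.029, was 0.0589 without D10, 0.0332 without D11 and 0.0643 without D13. The log2 ratios there were 1.46, 1.66 and 1.42. In the F3-generation the log2 ratio was 2.65 without F3C9 and 0.39 without F3C30, each leaving 1 vehicle-control animal. The unadjusted limma p, 0.0284, was 0.0300 without F3D1, 0.111 without F3D7 and 0.0323 without F3D31. With the 5 animals of a generation alone it was 0.0071 in the P-generation (adjusted p = 0.833) and 0.044 in the F3-generation (adjusted p = 0.9998). With the mean percentage over the CpGs in place of summed reads, the unadjusted limma p was 0.0739 in the P-generation and 0.294 in the F3-generation. The differences were then 1.01 and 0.558 percentage points. At 20 reads the differences were 2.54 percentage points in the P-generation and 2.08 in the F3-generation. Fewer than 5 CpGs of Brca1 were left at that minimum, so limma did not test it. Of the methylated reads of Brca1 in the main setting, 79.4% fell on 2 CpGs and 100% on 4.

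Dapk1 is a kinase that promotes cell death, and Trp73 is a member of the p53 family. The 4 CpGs with the most methylated reads held 40.7% of them in Dapk1 and 44.2% in Trp73. For Dapk1 (chr13:60600947-60602947, plus strand) 74 CpGs were covered, 36 of which never carried a methylated read. The level was 1.19% and 1.30% in C8 and C14, 0.917%, 1.08% and 0.635% in D10, D11 and D13, 0.915% and 0.862% in F3C9 and F3C30, and 0.793%, 1.12% and 1.27% in F3D1, F3D7 and F3D31. In the P-generation the decitabine treated animals lay below both vehicle-control animals, with a difference of -0.367 percentage points (95% limma interval -0.980 to 0.246; two-sided exact permutation p = 0.2), and in the F3-generation the groups overlapped. The CpG with the highest mean, 8.72%, lay 123 bp upstream.

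At Trp73 (chr4:154139208-154141208, minus strand) 41 CpGs were covered. The level was 1.78% and 0.637% in C8 and C14, 0.488%, 0.628% and 1.20% in D10, D11 and D13, 1.20% and 2.04% in F3C9 and F3C30, and 0.875%, 1.29% and 1.02% in F3D1, F3D7 and F3D31. The groups overlapped in both generations. The internal start of Trp73 at 43035 bp downstream (chr4, position 154097173), from which 4 annotated transcripts begin, presented the opposite state: its 6 covered CpGs were 91.2% ± 4.44 (SD, n = 10) methylated, from 81.1% in C8 to 97.6% in F3D7. There the P groups had means of 86.4% and 91.5% in vehicle-control and decitabine treated animals, and the F3 groups 90.7% and 94.6%, with overlap in both generations. Rassf1 differed in this respect, since the start of Rassf1-201 at 3028 bp downstream was at 1.14% ± 0.552 (SD, n = 10; 36 CpGs).

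Socs1, which restrains JAK and STAT signalling, had the most covered CpGs, 116 (chr16:10784536-10786536, minus strand), and 66 of them never carried a methylated read. The level was 0.790% and 0.791% in C8 and C14, 0.899%, 0.661% and 0.564% in D10, D11 and D13, 0.627% and 0.605% in F3C9 and F3C30, and 0.512%, 0.975% and 1.29% in F3D1, F3D7 and F3D31. The groups overlapped in both generations, with a mean of 0.772% ± 0.236 (SD, n = 10). Its highest CpG, 630 bp upstream, was at 46.7% of 15 reads in C8 and at 0% to 5.56% in the other animals.

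Of the 7 CpGs with a mean of 10% or more, 4 lay upstream of Rassf1, 2 upstream of Cdh1 and 1 upstream of Cdkn2a. Rassf1 encodes a scaffold that links Ras-type signals to the Hippo pathway, and Cdh1 encodes E-cadherin, the adhesion molecule of epithelial cells. For Rassf1 (chr9:107550555-107552555, plus strand) the level was 4.61% and 2.16% in C8 and C14, 2.54%, 5.90% and 1.24% in D10, D11 and D13, 5.05% and 4.09% in F3C9 and F3C30, and 2.41%, 2.44% and 3.22% in F3D1, F3D7 and F3D31. The P groups overlapped widely, while in the F3-generation all decitabine animals lay below both vehicle-control animals, at a difference of -1.88 percentage points (95% limma interval -4.55 to 0.802; two-sided exact permutation p = 0.1).

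Of the methylated reads of Rassf1, 73.4% fell on 4 upstream CpGs, of 24 covered. They lay 853, 848, 830 and 771 bp before the start with mean levels of 16.5%, 17.5%, 15.9% and 23.4%. The 20 CpGs in the first 500 bp of the gene averaged 1.06%. Those at 853, 848 and 830 bp upstream lay within an exon of the antisense gene Gm34106, which starts 787 bp from the Rassf1 start. The CpG at 771 bp, within an exon of the neighbouring Zmynd10, was at 29.4% and 24.7% in the F3 vehicle-control animals and at 16.1%, 13.3% and 12.8% in the F3 decitabine animals. This difference of -13.4 percentage points of the pooled reads had q = 0.00904 in the likelihood-ratio test and stayed under the 25 points required of a call. In the P-generation the same CpG overlapped between the groups, at 44.6% and 26.3% against 20.3%, 36.9% and 9.76%. With a window of 500 bp, which leaves these CpGs out, Rassf1 had a mean of 1.06% and an F3 difference of -0.53 percentage points.

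For Cdh1 (chr8:106602351-106604351, plus strand) the level was 4.52% and 3.32% in C8 and C14, 2.51%, 3.56% and 2.50% in D10, D11 and D13, 3.15% and 2.53% in F3C9 and F3C30, and 2.50%, 2.50% and 2.15% in F3D1, F3D7 and F3D31. The F3 groups did not overlap, by a margin smaller than the counting error, at a difference of -0.454 percentage points (95% limma interval -1.61 to 0.698; two-sided exact permutation p = 0.1). Of all methylated reads in the window, 61.3% fell on 2 upstream CpGs. The 28 CpGs of the first 500 bp of the gene averaged 0.869%, and with a window of 500 bp the F3 difference turned to 0.147 percentage points. It was -0.140 without F3C9, -0.767 without F3C30 and -1.53 at 20 reads.

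The CpG 788 bp upstream of Cdh1 was the most methylated of the 461, with a mean of 53.2%. It was at 62.5% and 54.1% in C8 and C14, at 47.3%, 51.1% and 50.0% in D10, D11 and D13, at 65.2% and 63.8% in F3C9 and F3C30, and at 43.9%, 44.3% and 50.0% in F3D1, F3D7 and F3D31. Every decitabine animal was below every vehicle-control animal of its generation, with a difference of -7.26 percentage points of the pooled reads in the P-generation (q = 0.742) and -19.3 in the F3-generation (q = 0.0538). This CpG was singled out after its values had been seen. Of 103042 CpGs with a mean level of 20% to 80%, 0.752% had this order in both generations, and among the members it was 1 of 3. At 24 to 66 reads per animal the Wilson 95% interval of single values was wide, from 42.7% to 78.8% in C8. The other CpG, 668 bp upstream, ranged from 17.1% in F3C30 to 87.5% in C8, and its groups overlapped in both generations.

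**Figure D3:**
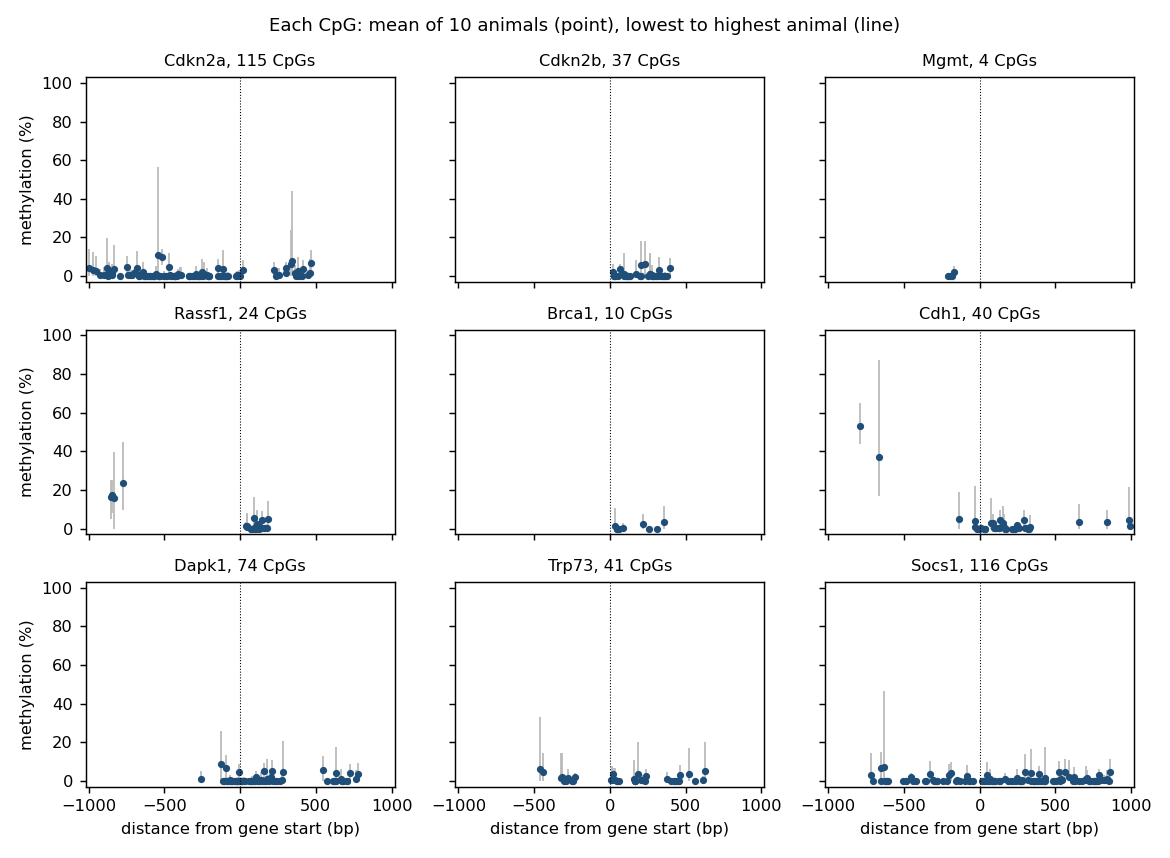
Methylation of each CpG covered in all 10 animals (y axis, percent) against its distance from the gene start (x axis, bp, negative upstream), 1 panel per gene. Points are means of the 10 animals and lines run from the lowest to the highest animal; apart from the upstream CpGs of Rassf1 and Cdh1, the points lie at or below 10.9%.

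**Figure D4:**
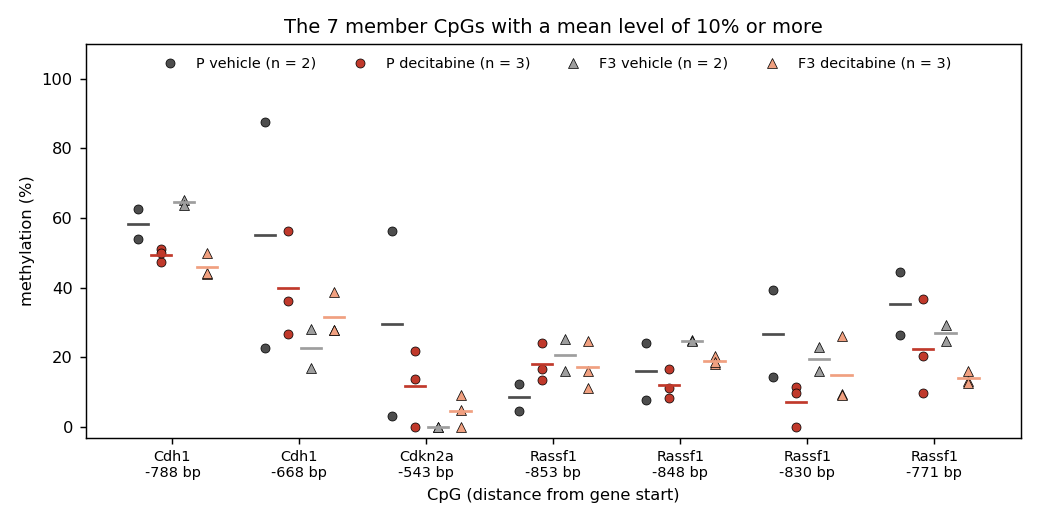
Methylation (y axis, percent) of the 7 CpGs with a mean of 10% or more in every animal, by gene and distance from the start (x axis). Points are animals and short lines group means; at 788 bp upstream of Cdh1 the decitabine animals lie below the vehicle-control animals of both generations, and at 543 bp upstream of Cdkn2a C8 stands alone at 56.3%.

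Whether decitabine altered these promoters was asked CpG by CpG. In the P-generation 0 of 480 tested CpGs of the members were called. A call asked for q under 0.01 in a logistic likelihood-ratio test and pooled levels at least 25 percentage points apart. Since 437 of the 461 CpGs covered in all animals had a mean below 5%, there was little room for a loss of 25 points. The count of 0 therefore says little about losses at these CpGs. The background was 0.705% of all CpGs and 0.0898% of CpGs in protein-coding promoters, so that a count of 0 lies near the promoter background. In the F3-generation 0 of 496 were called, with a background of 0.237% of all CpGs and 0.0245% in promoters. At an unadjusted p under 0.05 there were 35 of the 480 member CpGs in the P-generation, against 17.2% of all CpGs. In the F3-generation there were 43 of 496, against 16.1%. No share of promoter CpGs at this p was computed. The 211 member CpGs with no methylated read in any animal could not reach it, so these shares give no result about the members. Fisher's exact test and an F test with an overdispersion term called 0 in either generation.

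At q under 0.01 alone, 6 CpGs of the members remained in the P-generation (1.25%, near the 1.09% of promoter CpGs) and 4 in the F3-generation (0.806% against 0.516%). Without C8, C14 is the only vehicle-control animal. A q above 0.01 there does not by itself show that a difference rested on C8. The 6 CpGs of the P-generation were all lower in decitabine treated animals. They lay in Cdkn2a (346 and 459 bp inside the gene), Dapk1 (176 and 281 bp inside), Cdh1 (34 bp upstream) and Socs1 (843 bp inside). The largest difference, -22.8 percentage points at 346 bp in Cdkn2a, rested on 44.0% of 50 reads in C8, with 6.25% in C14 and 0% in D10, D11 and D13, and without C8 it was -6.25 (q = 0.0861). At 176 bp in Dapk1 the difference of -6.28 was 0 without C8, and at 34 bp upstream of Cdh1 that of -8.40 was -5.07 (q = 0.201). At 281 bp in Dapk1 both vehicle-control animals were high, with 20.6% and 15.7% against 0%, 1.67% and 5.66%, and without C8 the difference went from -15.2 to -13.3 (q = 0.0608). At 459 bp in Cdkn2a and 843 bp in Socs1 it went from -7.45 to -5.62 (q = 0.0321) and from -4.46 to -3.92 (q = 0.0683). The CpGs of the F3-generation lay in Rassf1 (771 bp upstream and 89 bp inside), Cdh1 (983 bp inside) and Socs1 (624 bp inside), and only the last was higher in decitabine animals, at 2.56%, 2.70% and 7.14% against 0% in both vehicle-control animals. These CpGs were picked by their q values, and no CpG was among both generations' sets.

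C8 departed from the other libraries in how its methylated reads were spread. It had no methylated read at 88.3% of the 461 CpGs, against 73.1% to 82.9% in the others, yet 30 of its CpGs were at 10% or more, against 7 to 18, and 8 were at 30% or more, against 1 to 3. Without C14, which leaves C8 as the only vehicle-control animal, 6 CpGs were called in the P-generation, in Cdkn2a (2), Trp73, Cdh1, Rassf1 and Socs1, all lower in decitabine treated animals. Without C8 the count was 0 of 507.

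Promoter by promoter, limma on the log2 ratio of methylated to unmethylated reads called 0 of the 8 members tested in the P-generation, 0 in the F3-generation and 0 for the change of the difference between generations. Mgmt was left out by the minimum of 5 CpGs per promoter. With a minimum of 1 CpG its log2 ratio was -1.02 in the P-generation (limma adjusted p = 0.662) and -0.51 in the F3-generation (adjusted p = 0.999). These ratios include 1 count added to methylated and to unmethylated reads, so among animals at 0 they depend on depth. C8 had 0 of 44 methylated, D11 0 of 175 and D13 0 of 119. The Mgmt differences were -0.340 percentage points in the P-generation and -0.453 in the F3-generation. Over all 12330 promoters the share called was 0% in each of the 3 comparisons, with an unadjusted p under 0.05 for 964, 329 and 684 promoters. Brca1 was the 1 member with an unadjusted p under 0.05 in the P-generation and in the F3-generation, and no member had one for the change between generations. With the P ancestor of each F3 animal as a block, chosen after seeing the data, 0 of 8 members were called for this change, with a smallest adjusted p of 0.814 (Cdkn2b).

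The log2 ratio of decitabine to vehicle-control was below 0 for 7 of the 8 members in the P-generation, Brca1 being the exception. The median of the members was -0.46, against -0.18 over all promoters, of which 38.5% had a ratio above 0. Without C8 the P difference in percentage points turned from negative to positive for Cdkn2b, Rassf1 and Trp73. The log2 ratio without C8 was 0.22 for Cdkn2b and 0.33 for Rassf1, but stayed below 0 for Trp73, at -0.13. In the F3-generation 4 of 8 log2 ratios were above 0, against 55.3% over all promoters, with a median of -0.01 against 0.06. The groups did not overlap for 2 of the 8 members in the P-generation (Brca1 and Dapk1), where 21.7% of all promoters did not overlap, and for 3 of 8 in the F3-generation (Cdkn2b, Rassf1 and Cdh1), where the share was 17.5%. The 95% intervals of the 8 differences lay within -2.83 and 2.52 percentage points in the P-generation and within -4.55 and 2.003 in the F3-generation.

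**Figure D5:**
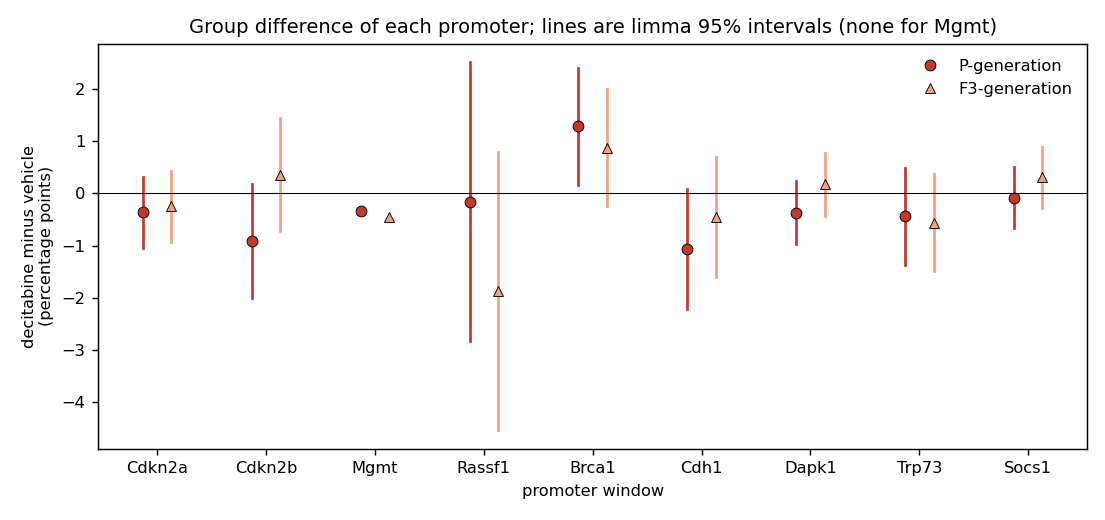
Difference of the group means (y axis, decitabine minus vehicle-control, percentage points) of each promoter (x axis) in the P-generation (circles, 3 against 2 animals) and the F3-generation (triangles, 3 against 2). Lines are 95% limma intervals, absent for Mgmt; in the P-generation the interval of Brca1 alone lies wholly on 1 side of 0, from 0.172 to 2.41, and the F3 intervals all include 0.

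A wider list of 35 genes silenced by methylation in cancers was likewise mostly unmethylated. Of these, 27 had at least 5 covered CpGs, with a median level of 0.941%, and 25 of the 27 were below 5%. Gata4, a transcription factor of the heart and gut, was the highest at 57.6% ± 5.83 (SD, n = 10; 6 CpGs), followed by Cdkn1c, an imprinted inhibitor of cyclin-dependent kinases, at 9.41% ± 2.42, and Gata5 at 3.17% ± 0.916. Limma called 0 of the 27 higher and 0 lower in either generation, with an unadjusted p under 0.05 for 1 gene in the P-generation and 0 in the F3-generation. The 7 genes Rarb, Runx3, Esr1, Cdkn1a, Fhit, Tfpi2 and Pycard had no CpG covered in all animals.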

How the data were processed

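RRBS of sperm DNA from 10 mice was analysed in 4 groups taken from the sample labels. The authors deposited 1 table per animal, in which every CpG cytosine has a count of methylated and one of unmethylated reads, with no normalization or coverage filter and no pooling. The submitters' processing notes name CASAVA 1.8.2, Trim Galore 0.3.3, cutadapt 1.1, Bismark 0.10.1 and mm10. RRBS covers CpGs near MspI sites only, and PCR copies of a fragment cannot be told from separate molecules in these counts.

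All listed positions were checked to be CpG cytosines in GRCm38. Strands were summed and CpGs with at least 10 reads in all animals compared were kept. CpGs were tested by a logistic likelihood-ratio test, which has no term for variation between animals, and promoters with at least 5 CpGs by limma on log2((methylated + 1)/(unmethylated + 1)) over all 10 animals, with Benjamini-Hochberg adjustment over the whole table. Single promoters were compared by exact permutation, which cannot go below 0.1 for 2 against 3. Separate animals are the replicates. In simulated data each change was a gain. Recovered were 95.0% of 200 CpGs of 934227 raised by 40 points, and 98.0% of 200 promoters of 12330 raised to 8 times the odds. Losses were not simulated, and the CpG counts were drawn without variation between animals.

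All 9 members are described with, for each, the CpG of the highest mean level where it adds to the values, the CpGs nearest to a call, starts over 1000 bp from the gene start and the 3 highest genes of the wider list. Members, lists and tests were chosen with earlier results of these data known. Alternatives were other coverage minimums, tests, windows and transcript starts, other promoter measures, leaving out each animal and, added after seeing the data, a block for the ancestor of each F3 animal as the study gives it. The software was limma 3.58.1 in R 4.3.3, and Python 3.11.15 with pandas 2.3.3, matplotlib 3.10.9, scipy 1.17.1 and numpy 2.4.6.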

Additional observations from a re-analysis of the deposited data

How the results depend on the processing

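No paired analysis was possible because the groups compared within a generation share no replicate numbers, which are animal numbers. Between generations, the study's account of descent gave a lineage block, added after seeing the data, which left the promoter calls among the members at 0. Of 76 recounts of CpG and promoter calls among the members, 72 gave 0 again. With a difference of 10 points in place of 25, there were 2 called CpGs in each generation. With a window of 2000 bp there was 1 in the P-generation, 1129 bp inside Cdkn2a, at 94.0% and 58.5% in C8 and C14 against 45.2% to 56.4% in decitabine treated animals. Leaving out single animals gave 0 to 6 called CpGs in the P-generation, 6 being without C14, and 0 in the F3-generation. Promoter calls among the members were 0 in each recount. Without C14, which leaves 1 vehicle-control animal assumed to vary like the other groups, 362 promoters of 12335 were called in the P-generation and none of the members, whose smallest adjusted p was 0.0606.

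The median level of the members kept within its spread in all recounts, and single levels moved beyond it for Rassf1 (1.06%) and Cdh1 (0.945%) in a window of 500 bp and for Mgmt (1.17% with all CpGs of each animal, 1.30% without C8). At 20 reads Mgmt had no value. The median group difference of the members, in percentage points, was -0.362 in the P-generation and ran from -0.592 to -0.083 without single animals. In the F3-generation it was -0.243, against -0.046 at 20 reads and 0.147 in a window of 500 bp. Differences of single members that changed sign were, at 20 reads in the P-generation, Cdh1 (0.291) and Trp73 (0.128); with all CpGs of each animal, Mgmt in the P-generation (0.382); and in a window of 500 bp, Cdh1 in the F3-generation (0.147). The causes of these shifts were not tested. For Cdh1 the narrower window leaves out the upstream CpGs and also CpGs farther inside the gene, such as that at 983 bp. Leaving out single animals in the P-generation gave -1.92 to 0.098 for Cdkn2b, -1.49 to 1.07 for Rassf1, -1.01 to 0.017 for Trp73 and -0.817 to 0.351 for Mgmt. The positive values came without C8 for Cdkn2b and Trp73, without C8, D10 or D13 for Rassf1, and without C14 for Mgmt. Differences under 25 points at single CpGs could not be called by the rule.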

Other observations

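Several annotated starts inside the same genes were highly methylated in sperm, unlike the gene starts. The 9 covered CpGs around the start of the non-coding transcript Dapk1-204, 94466 bp downstream of the Dapk1 start, were at 97.6% ± 1.18 (SD, n = 10). The 2 covered CpGs around the non-coding Brca1-204 start, 43777 bp downstream, were at 97.5% ± 2.83 (SD, n = 10). With the internal start of Trp73, these were the 3 alternative starts above 90%, of 5 with a covered CpG and 12 in all.

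The CpG 513 bp upstream of Cdkn2a had a mean of 9.88% and, in contrast to its neighbour at 543 bp, was methylated in every animal, from 5.94% in F3C30 to 13.9% in F3D31.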
